A study of Mus musculus with 26 samples.

Results

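Red blood cell precursors express a small set of genes for hemoglobin, heme and the red cell membrane, and 9 of these were followed in liver RNA: Gata1, Klf1, Epor, Tfrc, Alas2, Hba-a1, Slc4a1, Rhag and Epb42. They were taken by name from a table of 36883 gene names. All 9 were found, 8 by symbol and Epb42 by its RefSeq synonym Epb4.2. Livers came from 26 Eu-MYC mice, a transgenic line in which the immunoglobulin heavy chain enhancer drives MYC, and B-cell lymphomas can arise in it. All 26 mice carried the transgene, so no liver without it was compared. They were housed for 8 weeks under 12:12 lighting (8 females and 6 males) or under chronic jet lag lighting, CJL (8 females and 4 males). No age, strain background or state of health was found in the labels. The samples are numbered animals in the labels.

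Red cells form in the liver of the fetus and, after birth, in the bone marrow and, in mice, the spleen. The adult liver can take up blood formation again under stress or when the marrow is occupied. In a precursor, GATA1 and KLF1 switch on the erythroid programme, erythropoietin acts through its receptor EPOR, TFRC imports iron and ALAS2 makes the first intermediate of heme. Band 3 (SLC4A1), protein 4.2 (EPB42) and RHAG form a complex in the red cell membrane, and their transcripts belong to nucleated precursors and reticulocytes. Globin transcripts also persist in reticulocytes of circulating blood, and TFRC is made by most dividing cells.

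The upstream sequences of Alas2 and Hba-a1 are shown because these genes followed each other closely among females but parted between the sexes. Each is the 250 bases before the start of the gene, plus strand, from RefSeq on GRCm38.p6, at chrX:150547167-150547416 for Alas2 and chr11:32283422-32283671 for Hba-a1. Capitals mark GATA motifs (AGATAA or AGATAG, and TGATAA or TGATAG) and CACCC boxes (CCNCACCC), searched on both strands.
Alas2: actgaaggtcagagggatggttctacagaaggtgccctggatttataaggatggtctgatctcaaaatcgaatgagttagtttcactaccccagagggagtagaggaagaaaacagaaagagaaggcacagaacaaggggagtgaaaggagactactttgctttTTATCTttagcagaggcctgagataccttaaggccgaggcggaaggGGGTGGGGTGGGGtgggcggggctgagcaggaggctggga
Hba-a1: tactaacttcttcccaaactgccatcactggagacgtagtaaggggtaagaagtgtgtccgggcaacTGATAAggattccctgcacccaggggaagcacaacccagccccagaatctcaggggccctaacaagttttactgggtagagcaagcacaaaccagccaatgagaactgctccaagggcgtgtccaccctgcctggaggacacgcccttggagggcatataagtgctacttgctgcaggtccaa
The Alas2 stretch held 1 GATA motif, 86 bases before the start, and 2 overlapping CACCC boxes, at 40 and 35 bases. The Hba-a1 stretch held 1 GATA motif, 183 bases before the start, and no CACCC box. Windows from 250 bases before to 50 bases after the start were found for 8 of the 9 genes, Slc4a1 being the exception. Of the 8, 6 held a GATA motif, 4 a CACCC box and 2 (Alas2 and Epor) both. Over all 32851 windows of this length, 29.8% held the GATA motif and 16.6% the CACCC box.

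Library totals ran from 45364557 to 50242019 counts, so that 3 counts, which is as much as a 0 can hide, made up to 0.0661 CPM (counts per 1000000 counts of the library). This limit covers counting error only. The B cell gene Cd79a split the livers: 8 had 14.5 to 144 CPM and the other 18 had 1.28 to 2.95 CPM. The 8 were 12:12 females 6 and 7, jet lag females 2, 5 and 6, 12:12 males 3 and 5, and jet lag male 8. They are libraries set apart by a measured gene and no group of the study, so values by Cd79a level are given without a test. Albumin took 12.9% to 22.1% of counts in the 8 and 10% to 14.4% in the rest.

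Per kilobase of exon, Hba-a1 had the highest median over the 26 livers (629 CPM per kb), followed by Alas2 (25.5), Tfrc (4.13), Klf1 (1.58), Epor (1.01), Slc4a1 (0.072) and Gata1 (0.022). Of the neighbours in this order, Hba-a1 and Alas2 alone had ranges over libraries that did not overlap. Rhag and Epb42 had a median of 0. Counts passed the filter on low values for 6 of the 9 genes, which left out Gata1, Rhag and Epb42.

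**Figure D1:**
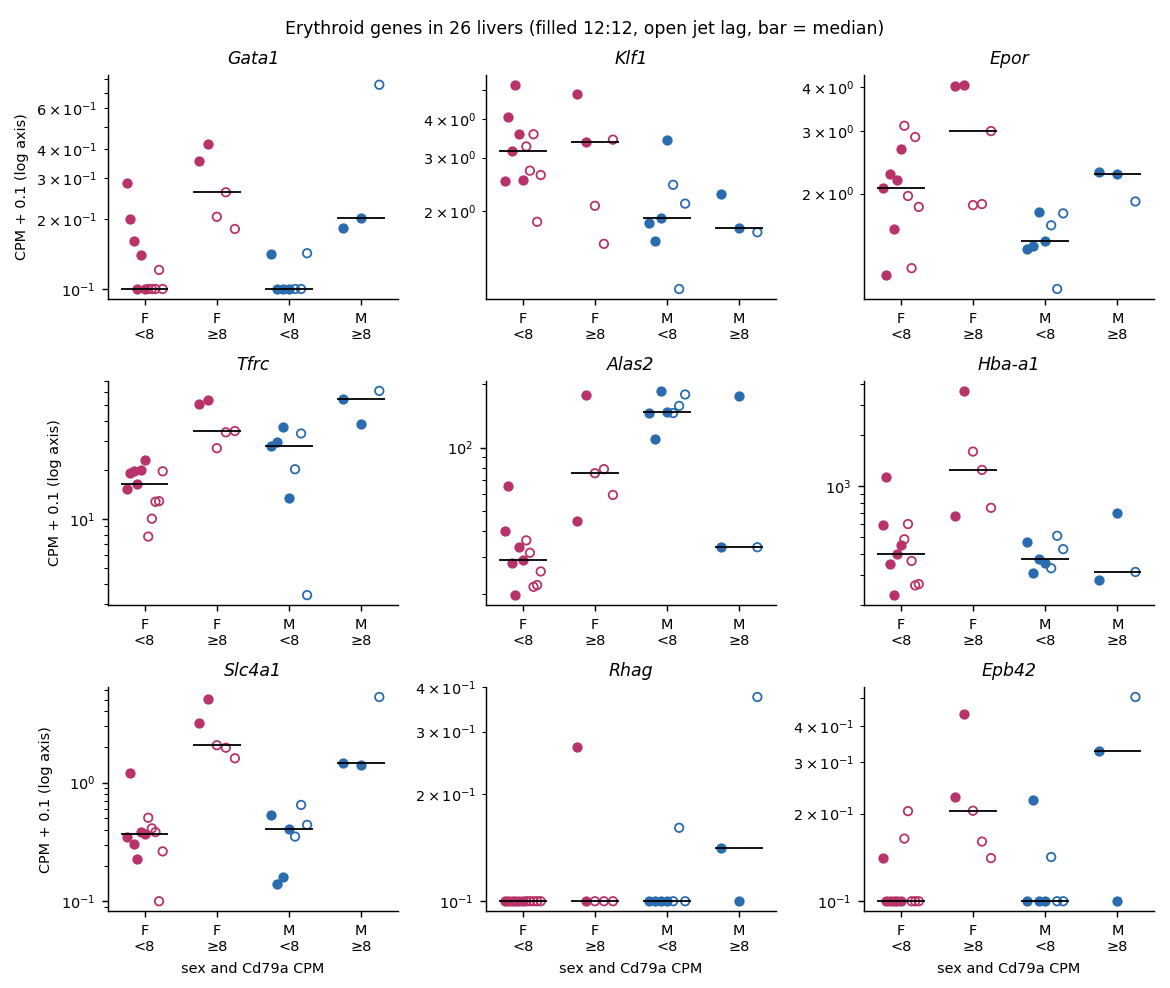
CPM + 0.1 of the 9 genes (log axis) in each liver, by sex (F, M) and Cd79a level (under 8 or at least 8 CPM); filled points are 12:12 lighting, open points jet lag, bars medians. Slc4a1 is higher in all 8 livers rich in Cd79a, while Alas2 is highest in males with little Cd79a.

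Slc4a1, the anion exchanger band 3, was the member that separated the 8 livers rich in Cd79a from the rest. The 18 others had 0 to 1.09 CPM (median 0.275). Among the 8, females had 1.50, 1.87, 1.97, 3.06 and 4.94 CPM, and males had 1.32, 1.37 and 5.17 CPM. Every one of the 8 lay above all 18, and the log2 ratio of the medians was 2.43 (pseudocount 0.1 CPM). The ratio was 2.49 within females and 1.84 within males, without overlap in either sex. In the same way, 665 of 16892 genes tested (3.94%) were higher in all 8, and 1 of the 9 members was. No such share is given within a sex. With a limit of 16 CPM of Cd79a, jet lag female 2 (1.97 CPM of Slc4a1) joined the rest, and the ranges of Slc4a1 then overlapped. In bulk tissue, fewer cells of a type and less RNA per cell cannot be told apart.

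**Figure D2:**
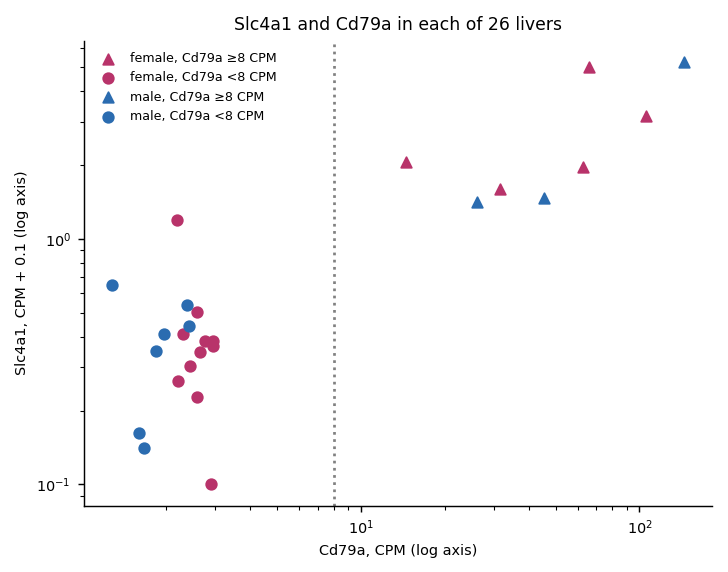
Slc4a1 (CPM + 0.1) against Cd79a (CPM), both on log axes, in each of 26 livers; the dotted line is 8 CPM of Cd79a. All 8 livers to its right have at least 1.32 CPM of Slc4a1, against at most 1.09 CPM to its left.

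The separation remained per globin transcript, which reuses the same Slc4a1 counts and is no second observation. Set against Hba-a1, Slc4a1 gave 1.23 to 16.5 counts per 1000 counts of Hba-a1 in the 8 livers and 0 to 1.07 in the other 18. The highest ratio was in jet lag male 8, where Hba-a1 was only 313 CPM. The liver with most Slc4a1 was thus among the lower in globin RNA.

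Of the transcription factors, Gata1 was near the limit of detection. All 8 livers rich in Cd79a had at least 3 counts of Gata1 (0.081 to 0.656 CPM, median 0.133), against 3 of the other 18 (0 to 0.185 CPM, 11 at 0). The classes overlapped: with little Cd79a, 12:12 females 1 and 2 had 0.185 and 0.0995 CPM, above some of the 8. Among males they did not: the 3 with much Cd79a had 0.083 to 0.656 CPM and the other 7 at most 0.043 CPM. So few males part easily, and no share of all genes is given within males. Klf1, which activates globin genes, did not follow: it had 1.47 to 4.75 CPM (median 2.08) in the 8 and 1.01 to 5.09 CPM (median 2.48) in the rest, with a log2 ratio of -0.24.

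The other members of the band 3 complex were sparse. Epb42 reached 3 counts in 6 of the 8 livers rich in Cd79a (0 to 0.402 CPM) and in 3 of the other 18 (0 to 0.122 CPM). Rhag reached 3 counts in 2 of the 8, 12:12 female 6 (0.171 CPM) and jet lag male 8 (0.275 CPM), and in 1 of the 18, jet lag male 6 (0.061 CPM). It was at 0 in 22 of the 26 livers. Jet lag male 8 was thus the highest of all livers in Slc4a1, Gata1, Epb42 and Rhag, and also in Cd79a.

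Tfrc and Epor, the receptors for transferrin and erythropoietin, were shifted upward with overlap. Tfrc had 27.1 to 60.9 CPM (median 44.4) in the 8 livers and 3.32 to 36.5 CPM (median 19.2) in the 18, a log2 ratio of 1.20. Within each sex the Tfrc ranges did not overlap, since females ran from 27.1 to 53.3 against 7.71 to 22.8 CPM and males from 38.2 to 60.9 against 3.32 to 36.5 CPM. Epor had 1.76 to 3.96 CPM (median 2.18) against 0.975 to 3.01 CPM (median 1.67), a log2 ratio of 0.37. Its ranges overlapped in females, while males ran from 1.80 to 2.19 against 0.975 to 1.68 CPM, without overlap. Fewer livers part more easily, and no share of all genes is given within a sex, so these within-sex ranges are a description. Erythropoietin itself (Epo) was under 3 counts in all 26 livers.

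Hba-a1, an alpha globin, had ratios of opposite sign in the sexes. Females rich in Cd79a had 671, 747, 1247, 1598 and 3635 CPM, against 229 to 1140 CPM (median 397) in the other 11 females. Males rich in Cd79a had 282, 313 and 695 CPM, against 311 to 511 CPM (median 372) in the other 7 males. The log2 ratio was 1.65 in females and -0.25 in males, the ranges overlapped in both, and the difference between the sexes was not tested. Reads of Hba-a1 and its near-identical copy Hba-a2 may be split uncertainly, and Hba-a2, Hbb-bs and Hbb-bt had log2 ratios of 1.68, 1.79 and 1.92 in females and -0.34, -0.42 and -0.56 in males. The embryonic globins Hba-x and Hbb-y were at most 0.040 and 0.063 CPM.

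Over the 9 members, 4 had a median at least 2-fold higher in the 8 livers rich in Cd79a (Slc4a1, Gata1, Tfrc and Epb42) and none a median 2-fold lower. Gata1 and Epb42 had not passed the filter, and of the 6 genes that had, 2 were at least 2-fold higher, beside 10.1% of all genes tested. The median log2 ratio was 0.91 for the 9 and 0.87 for the 6 that passed the filter, against 0.11 over all genes tested. The 0.91 is the value of Hba-a1, and the 0.87 lies between those of Hba-a1 and Alas2 (0.83). Both genes had ratios of opposite sign in the sexes, Hba-a1 1.65 in females and -0.25 in males, and Alas2 1.37 and -2.125. Within females the median of the 9 was 1.07 and within males 0.63. With a pseudocount of 1 CPM it was 0.25 for the 9 and 0.86 for the 6, and no value over all genes is given. With that pseudocount Gata1 and Epb42 had log2 ratios of 0.18 and 0.16, and Slc4a1 and Tfrc 1.19 and 1.17. Of the wider erythroid lists, with the 9 members left out, 5 of 16 red cell membrane genes, 4 of 10 transcription factors, 1 of 8 globins, 1 of 14 late maturation genes, 0 of 12 genes of heme synthesis and iron uptake, and 0 of 11 genes of erythropoietin signalling were at least 2-fold higher. Median log2 ratios of these genes were 0.26, 0.74, 0.39, 0.14, -0.17 and -0.06. With a pseudocount of 1 CPM, 0 of the 16 membrane genes and 3 of the 10 transcription factors were. Genes named here after their values were seen are Myb, E2f2 and Bcl11a, transcription factors also used by B-lineage cells, and Trim10, an erythroid ubiquitin ligase. The ranges of these 4 did not overlap. Myb was 1.65 to 71.0 CPM in the 8 against at most 0.546 CPM in the 18, and Trim10 was 0.209 to 0.597 CPM against 0 to 0.164 CPM. Trim10 was low throughout and passed the filter (count minimum of 10) only through the 8 livers. Its lack of overlap is therefore a description and no support.

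Markers of other cells moved with the same split. Of 10 megakaryocyte and platelet genes, a lineage that also uses GATA1, 6 were at least 2-fold higher in the 8 (0 with a pseudocount of 1 CPM), and their summed level was 6.76 to 29.8 CPM against 4.30 to 7.13 CPM. Of 11 neutrophil genes 9 were (13.7 to 461 against 5.47 to 14.3 CPM), of 11 macrophage and Kupffer cell genes 7 (610 to 2711 against 307 to 666 CPM), of 13 B-lineage genes other than Cd79a, which set the classes, 9 (40.7 to 340 against 9.26 to 21.2 CPM) and of 12 proliferation genes 11 (68.9 to 905 against 19.7 to 36.2 CPM). Of 8 genes of mast cells, basophils and eosinophils 2 were (5.41 to 28.2 against 3.50 to 9.54 CPM), and 0 with a pseudocount of 1 CPM. The basophil protease Mcpt8 was at 0 in 19 of 26 livers. The eosinophil peroxidase Epx was at 0 in all 18 and in 3 of the 8, and reached 3 counts in 4 of the 8. None of 10 hepatocyte genes was at least 2-fold higher in the 8. Of all genes tested, 10.1% were. With a pseudocount of 1 CPM the counts were 8 for neutrophil, 7 for macrophage and Kupffer cell, 8 for B-lineage and 11 for proliferation genes. The part of these cells in the levels of Gata1, Tfrc and Slc4a1 was not tested.

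**Figure D3:**
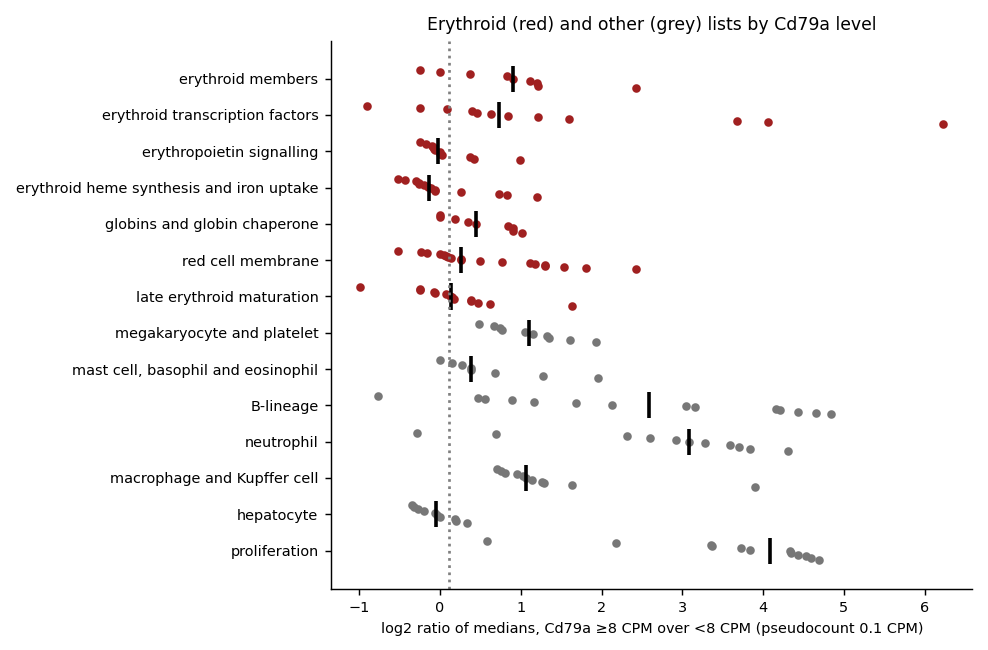
Log2 ratio of medians (livers with at least 8 CPM of Cd79a over the rest) for each gene of 14 lists; red points are erythroid lists, grey points other lists, bars list medians (members and Cd79a included), and the dotted line is the median of all genes tested (0.11). Proliferation, neutrophil and B-lineage lists have medians farther right than any erythroid list.

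Alas2, the erythroid form of aminolevulinate synthase, differed between the sexes. Among the 18 livers with little Cd79a, the 11 females had 19.8 to 65.5 CPM (median 29.1) and the 7 males 110 to 186 CPM (median 147), without overlap. Females rich in Cd79a had 44.5, 59.5, 75.4, 78.9 and 179 CPM, above the median of the other females. Of the males rich in Cd79a, 12:12 male 3 and jet lag male 8 had 33.7 and 33.5 CPM, below all 7 other males, and 12:12 male 5 had 176 CPM.

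The comparison of females with males was added after these levels were seen. In edgeR over all 26 livers, 1542 of 16892 genes (9.13%) differed, and Alas2 was the 1 member of 6 tested that did. Its log2 ratio of female over male was -1.62 (SE 0.34, adjusted p = 0.00247), and -2.40 without the 8 livers rich in Cd79a (SE 0.20, adjusted p = 2.6e-08). Klf1 gave 0.55 (SE 0.18, adjusted p = 0.0587), Hba-a1 0.81 (adjusted p = 0.188), Tfrc -0.54 (adjusted p = 0.313), Epor 0.37 (adjusted p = 0.222) and Slc4a1 0.01 (adjusted p = 0.996). The Klf1 difference passed the threshold with DESeq2 (adjusted p = 0.0294) and with Cd79a as a covariate (adjusted p = 0.0301). On the X chromosome Alas2 overlaps Apex2 on the opposite strand, and how the counting treated strand is not stated in the labels. Apex2 was counted at 2.77 to 7.16 CPM, below Alas2 in every liver, and was also lower in females (log2 -0.61, SE 0.10, adjusted p = 8.51e-05).

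**Figure D4:**
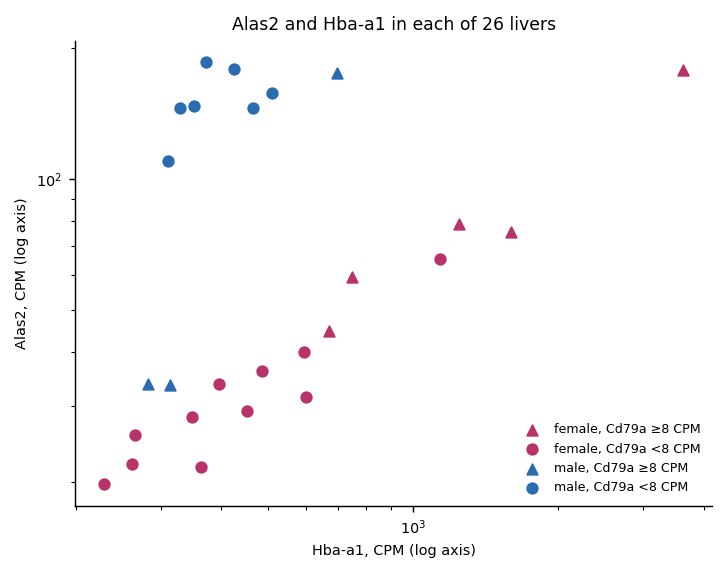
Alas2 against Hba-a1 in each of 26 livers, in CPM on log axes; colour is sex and triangles have at least 8 CPM of Cd79a. Females lie along 1 line, and 8 of the 10 males lie well above it, with 12:12 male 3 and jet lag male 8 close to it.

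Relative to Hba-a1, Alas2 varied less among females than among males. The 16 females had 47.2 to 96.4 counts of Alas2 per 1000 of Hba-a1, whatever their Cd79a. The 7 males with little Cd79a had 309 to 501, and the 3 others had 107 (jet lag male 8), 119 (12:12 male 3) and 253 (12:12 male 5). All 10 males were therefore above all 16 females in this ratio, which is described without a test.

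Correlations between members were computed on log2(CPM + 0.1) over the 18 livers with little Cd79a only, for 36 pairs of members and the 9 pairs with Cd79a, with a two-sided permutation test adjusted over the 45. In all, 1 relation passed by both measures, Slc4a1 with Hba-a1 (Pearson r = 0.78, adjusted p = 0.0070; Spearman rho = 0.77, adjusted p = 0.0135). Without the 2 livers farthest from the median of Slc4a1, r was 0.60. Without 12:12 female 2, the highest of the 18 in both, no relation passed. Alas2 and Hba-a1 gave r = 0.19 over the 18, where the sexes form separate clusters. Within the 11 females they gave r = 0.92 (permutation adjusted p = 0.0054) and rho = 0.87 (adjusted p = 0.0275), with r = 0.78 without the 2 farthest livers. Slc4a1 and Hba-a1 gave r = 0.85 there (permutation adjusted p = 0.0202). Within the 7 males no relation passed, and Alas2 with Hba-a1 gave r = 0.48 (exact permutation, adjusted p = 0.632). The relation of Alas2 to Cd79a over the 18 passed by Pearson (r = -0.73, permutation adjusted p = 0.0070) but not by Spearman (rho = -0.68, adjusted p = 0.0574). It did not hold within sexes, with r = -0.38 in females and 0.10 in males.

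The study asked how liver gene expression differed under jet lag lighting, and no erythroid member passed the threshold. Over both sexes, 132 of 16892 genes differed (0.781%), and 0 of the 6 members tested did (edgeR, DESeq2 also 0). Klf1 came closest. It had 2.42 to 5.09 CPM (median 3.38, mean 3.55 ± 0.99 SD, n = 8) in 12:12 females and 1.47 to 3.47 CPM (median 2.57, mean 2.54 ± 0.75 SD, n = 8) in jet lag females. In 12:12 males it had 1.50 to 3.33 CPM (median 1.77), and in the 4 jet lag males 1.01, 1.61, 2.02 and 2.34 CPM. Groups overlapped in both sexes, and 9 of 12 jet lag livers were below the 12:12 median of their sex. The log2 fold change of Klf1, jet lag over 12:12, was -0.40 (SE 0.18), with an unadjusted p of 0.0322 and an adjusted p of 0.525 from edgeR.

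The other 5 gave log2 fold changes of -0.37 (Tfrc, SE 0.31), -0.25 (Hba-a1, SE 0.35), -0.19 (Alas2, SE 0.34), -0.17 (Epor, SE 0.17) and 0.15 (Slc4a1, SE 0.71), with adjusted p from 0.963 to 0.999. The median of the 6 was -0.22, against 0.02 over all genes tested. The sign of the Slc4a1 value turned to -0.56 without jet lag male 8, and those of Alas2 and Hba-a1 to 0.10 and 0.16 without 12:12 female 7. In the authors' deposited table, whose values are given here as jet lag over 12:12, Klf1 was at -0.37 (adjusted p = 0.669), Tfrc at -0.40 (adjusted p = 0.910) and Slc4a1 at 0.16 (adjusted p = 1.0).

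**Figure D5:**
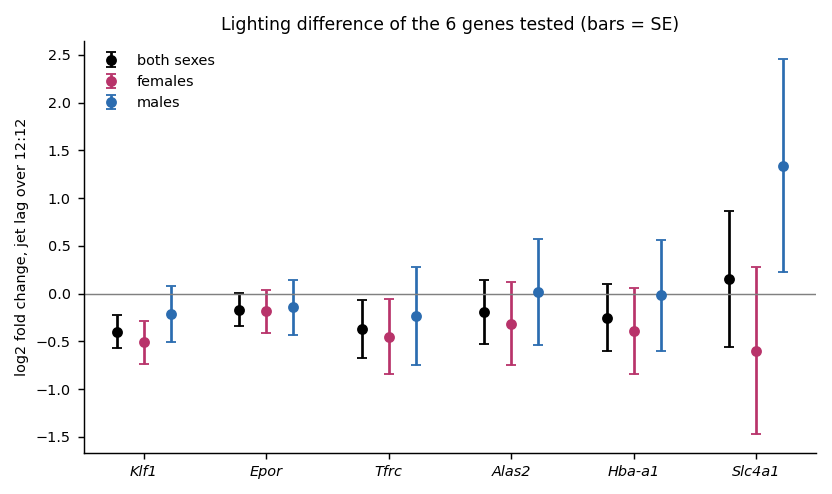
Log2 fold change of jet lag over 12:12 lighting for the 6 genes that passed the filter, over both sexes, within females and within males; bars are SE, derived from the F statistic. For Slc4a1 the females lie below and the males above 0, and no value passed the threshold.

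By sex, edgeR called 0 genes (0%) in females, 2 (0.0118%) in males and 0 (0%) for the difference between the sexes, while 772, 1630 and 902 genes had an unadjusted p below 0.05. The calls of DESeq2 numbered 55, 89 and 0. No member was among any of them. Slc4a1 gave log2 -0.60 (SE 0.87) in females and 1.34 (SE 1.11) in males, and the difference was -1.94 (SE 1.41, adjusted p = 0.814). In 12:12 females Slc4a1 had 0.126 to 4.94 CPM (median 0.275) and in jet lag females 0 to 1.97 CPM (median 0.359). In 12:12 males it had 0.041 to 1.37 CPM (median 0.373), and the jet lag males had 0.251, 0.340, 0.548 and 5.17 CPM. The high value in each group belonged to livers rich in Cd79a, of which 4 were under 12:12 lighting and 4 under jet lag.

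None of the wider erythroid lists had a gene past the threshold for lighting over both sexes. The genes with the smallest p per list were Stat5b (log2 0.29, SE 0.08, adjusted p = 0.0959) and Stat5a (0.25, adjusted p = 0.403), which carry the erythropoietin signal among many others, Steap3, an iron reductase (0.45, SE 0.13, adjusted p = 0.145), Slc25a37, the mitochondrial iron importer mitoferrin (-0.46, SE 0.15, adjusted p = 0.202), Epb41, protein 4.1 (-0.34, adjusted p = 0.155), and Tspan33 (0.44, adjusted p = 0.329). Hba-a2 was at -0.25, Gfi1b at 0.69, Ube2o at 0.20 and Mgst3 at 0.17, with adjusted p of 0.663 or more.

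A mean z score of Alas2, Klf1, Slc4a1, Rhag, Gata1 and Epb42 was highest in jet lag male 8, 12:12 female 6 and 12:12 female 7. Over the 26 livers its Spearman rho was 0.87 with Slc4a1, 0.79 with Gata1 and 0.65 with Epb42, but 0.39 with Alas2 and 0.01 with Klf1. These genes are parts of the score, so their likeness to it is partly built in. The 10 genes outside the lists most like the score were Car12, Slc35f2, Zkscan16, Gm32679, Trip13, Gins1, LOC105245141, Camkv, Fancb and Mastl, with rho from 0.89 down to 0.80. Car12 is a carbonic anhydrase, and Gins1, Fancb and Mastl act in DNA replication, DNA repair and mitosis. These livers share the split by Cd79a, so the likeness is a description.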

How the data were processed

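Liver RNA of 26 mice was sequenced as stranded mRNA libraries, per the labels' protocols. The submitters' processing notes name STAR, DESeq2 and mm10 without versions; no source used here names the counting tool, the annotation or how strand was treated. The authors deposited expected counts per gene name, not normalized; 45.8% of cells held 0.015, set to 0, and 1.44% were not whole (tolerance 1e-06) and were rounded. A DESeq2 result deposited by the authors gives a log2 fold change, its standard error, and raw and adjusted p-values; it was used only for values side by side.

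CPM is a count divided by the library total, times 1000000. For tests, edgeR 4.0.16 (TMM, filterByExpr by group with a count minimum of 10, quasi-likelihood F test) was fitted on all 26 libraries and 16892 genes, with sex and lighting as terms, or 4 group means for comparisons within a sex and their difference. Calls needed a Benjamini-Hochberg adjusted p under 0.05 over all genes. The SE given with edgeR values was derived as the absolute log2 fold change divided by the square root of F. DESeq2 1.42.0 was an alternative. On simulated counts with the design of lighting over both sexes, on 16679 genes, the test recovered 59 of 92 genes changed 2-fold and 95 of 102 changed 4-fold, with 8 false calls. Correlations used 100000 resamples. Exon lengths came from GENCODE M21. Lists had 168 entries, of which 165 matched. No 2 libraries of a group were copies (chi-square per degree of freedom at least 31.5).

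The members, lists, the 8 CPM limit and the tests were chosen with earlier results of these data known. Named genes were all members, the 2 genes of each erythroid list with the smallest p for lighting over both sexes, and the 10 genes most like the mean z score, with markers of other cell types as levels. Other genes (Myb, E2f2, Bcl11a, Trim10, Epo, Hbb-bs, Hbb-bt, Hba-x, Hbb-y and Apex2) fall outside this rule and were named after their values were seen.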

Additional observations from a re-analysis of the deposited data

Results flagged for a closer look

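Within the 4 groups, 36 sets of values (9 genes in 4 groups) were examined for a liver far from the others, and 9 values met the criterion. Chance meets it in about 1 set in 20 only where values are normally distributed. CPM values here include many at 0, so the 9 cannot be read as an excess over chance. These 9 values came from 5 livers, of which 4 had at least 8 CPM of Cd79a. Jet lag male 8 stood above the other 3 jet lag males in Slc4a1 (5.17 CPM), Gata1 (0.656 CPM) and Epb42 (0.402 CPM). The 12:12 female 7 stood above its group in Hba-a1 (3635 CPM), Alas2 (179 CPM) and Epb42 (0.341 CPM). Rhag was detected in 1 liver of its group in 12:12 female 6 (0.171 CPM) and 12:12 male 3 (0.041 CPM, under 3 counts). With all other livers of the group at 0, any count meets the criterion by construction. The 1 such liver with little Cd79a was 12:12 male 6, where Klf1 was 3.33 CPM, above the other 12:12 males.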

How the results depend on the processing

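No erythroid member passed the threshold for lighting (both sexes, females, males or their difference) under any alternative run: DESeq2, its size factors in edgeR, no filter, a replicate block, Cd79a as a covariate, without the 8 livers rich in Cd79a, and each of 26 libraries left out. Counts of all genes did move. Over both sexes 132 became 381 without the 8 livers, 288 with the covariate and 274 with DESeq2, and 70 to 244 with 1 library left out (244 without jet lag male 8). In females 0 became 13, 28 and 55 in that order, and 0 to 13 with 1 library left out. In males 2 became 219, 61 and 89, 0 with DESeq2 size factors, and 0 to 106 with 1 library left out (106 without jet lag male 8). With the replicate block the counts were 111, 19 in females and 4 in males. The labels do not say whether animals of the same number are paired. Correlations of same-numbered livers ran from -0.384 to 0.602, and 1 of 10 correlated best with its own number. Such correlations cannot show that pairing was absent.

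For lighting over both sexes, log2 values that turned sign, none past the threshold, were Epor 0.040 and Slc4a1 -0.13 without the 8 livers, Slc4a1 -0.18 with the replicate block and -0.56 without jet lag male 8, and, without 12:12 female 7, Alas2 0.10 and Hba-a1 0.16. With 1 library left out their ranges were -0.30 to 0.10 (Alas2), -0.56 to 0.59 (Slc4a1) and -0.42 to 0.16 (Hba-a1). Female over male, genes called went from 1542 to 3188 without the 8 livers and 2533 with the covariate, and members called from 1 to 2 (Alas2 and Klf1) with the covariate and with DESeq2, and 1 to 2 with 1 library left out. Alas2 passed in all 26 of those (log2 -1.87 to -1.48). Slc4a1, near 0, turned to -0.0051 with DESeq2 size factors, -0.045 without the 8 livers, -0.046 with the covariate, -3.2e-05 with DESeq2, and -0.35 to 0.90 with 1 library left out.

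The median log2 ratio of members by Cd79a level (0.91) was 0.25 with a pseudocount of 1 CPM, and 0.85 to 0.99 with 1 library left out. It was 1.07 within females and 0.63 within males. For the 6 members that passed the filter it was 0.87, and 0.86 with a pseudocount of 1 CPM. Members above every other liver numbered 1 of 9, beside 3.94% of all genes tested, but 0 with a limit of 16 CPM, 2 within females and 4 within males. The share of all genes is not given within a sex or at 16 CPM. Separating 3 males from 7 is also easier than separating 8 livers from 18, so these counts are not compared. Relations past the threshold numbered 1, but 2 within females, 0 within males, and 0 to 2 with 1 library left out (0 without 12:12 female 2). The cause was not tested. Gata1, Rhag and Epb42 are limited by depth.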
